A study of Mus musculus with 2 samples.

Results

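The 38 genes described here are genes of the apoptosis and p53 pathways, among 43346 annotated genes measured in E12.5 mouse midbrain. They were chosen by name for their known roles, with earlier results of these data known. All 38 were matched by symbol, and together they carried 200 annotated transcripts. They comprise 4 pro-survival BCL2 proteins, 3 pore-forming effectors, 8 BH3-only proteins, 5 genes of the caspases and the apoptosome, 2 proteins released from mitochondria, 4 inhibitor of apoptosis proteins, a death receptor with its adaptor, 4 genes of the p53 family and its regulators, and 6 p53 target genes. The tissue was midbrain of healthy embryos of strain B6NCrl, both sexes pooled, at embryonic day 12.5, with no treatment or engineered allele named in the labels. It was sequenced as 2 libraries that form 1 group, each from its own pooled embryos (120 for replicate 1, 88 for replicate 2) and from 10 ng of RNA. No condition was compared, so differences between the libraries describe these pools.

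Apoptosis removes surplus neurons and progenitors while the brain forms. In the mitochondrial route, BH3-only proteins sense stress and engage pro-survival BCL2 proteins, which otherwise hold the effectors BAX and BAK in check. Once the effectors open the outer mitochondrial membrane, cytochrome c joins APAF1 in the apoptosome and activates caspase-9, and the inhibitor of apoptosis proteins and their antagonist DIABLO act on the caspases downstream. The transcription factor p53, held low by MDM2 and MDM4, raises the transcription of several of these genes.

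The libraries held 28212923 and 36082643 expected counts on annotated genes, of which 53976 and 67994 fell on the 38 members. Markers of neurons (8 of 8), of neural progenitors (8 of 8) and of midbrain (6 of 6) stood at 1 TPM or more in both libraries. Levels are given as deposited TPM (transcript abundance scaled to length and library, which allows genes to be set side by side), in replicate 1 first and replicate 2 second. In bulk tissue, fewer cells of a type and less RNA per cell cannot be told apart.

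Of the 38 members, 35 (92.1%) were at 1 TPM or more in both libraries, compared with 13006 of all 21474 protein-coding genes (60.6%). The other 3 were under 1 TPM in both: Hrk, Fas and Trp73. By posterior mean TPM, Trp73 was at 1.13 in replicate 1 and 0.78 in replicate 2, while Hrk and Fas were under 1 in both. The median level over all 38 was 18.9 and 20.5 TPM. Among genes that reached 1 TPM in both libraries, the median was 21.6 TPM for the members and 21.9 TPM for protein-coding genes at large. The members' levels differed widely: 23 were at a mean of 10 TPM or more, 10 at 50 TPM or more, and 3, Bax, Bcl2l1 and Diablo, at 100 TPM or more. Within the roles, 24 of 29 pairs of neighbouring levels were apart, meaning that the deposited TPM intervals did not overlap, in the same order, in both libraries.

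**Figure D1:**
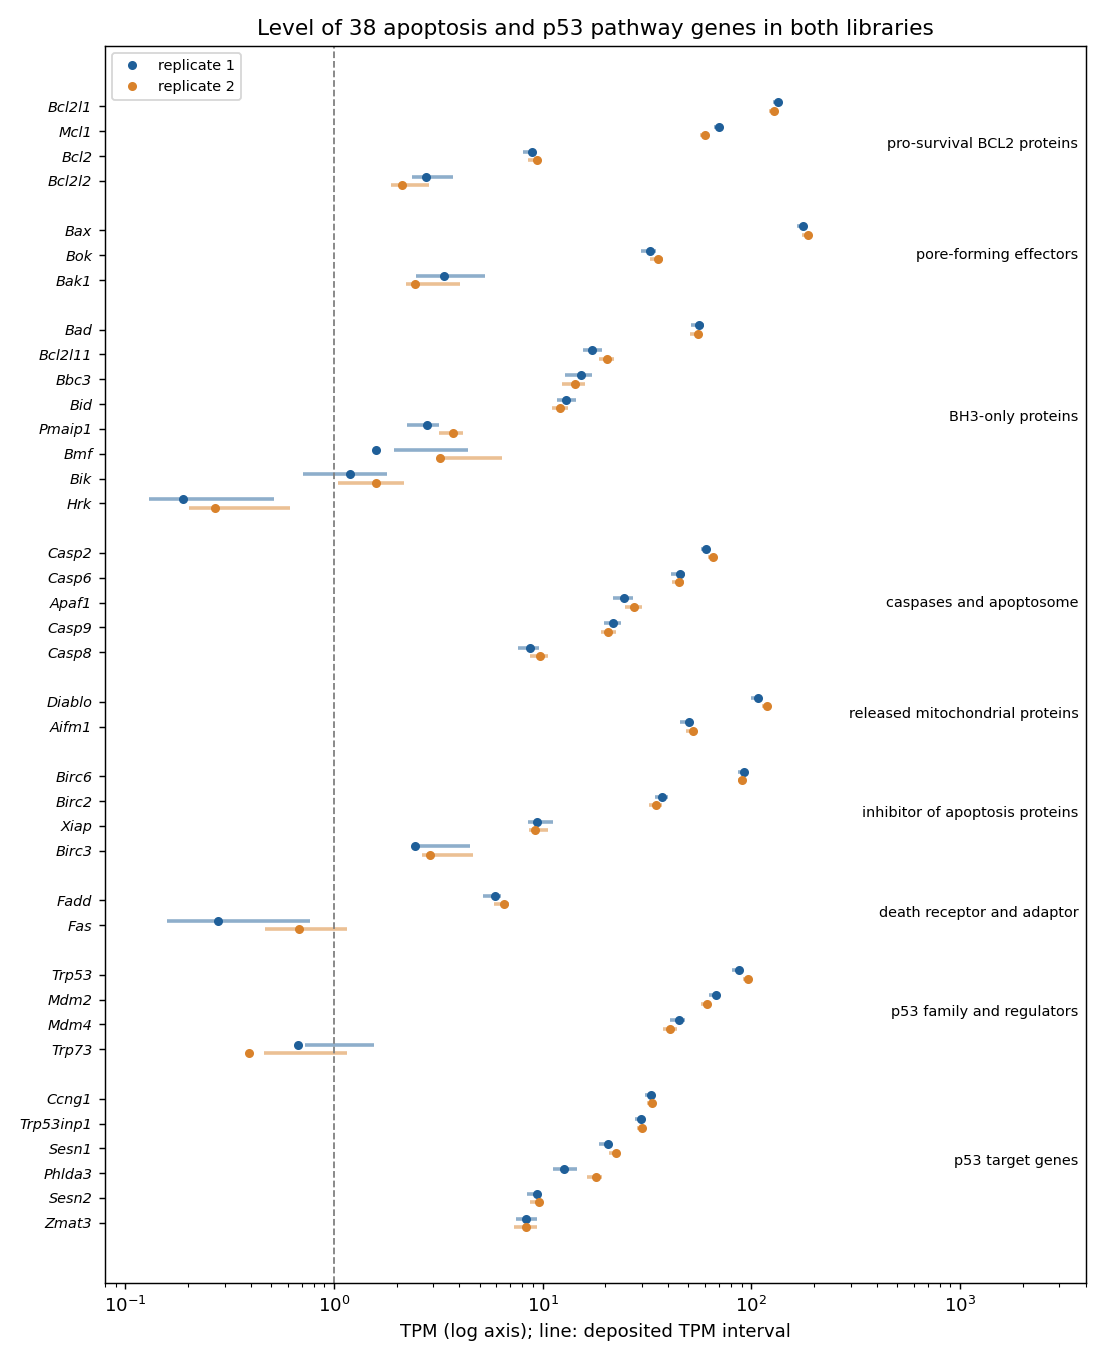
Level of each of the 38 members in TPM (log axis), grouped by role, with a point for each library and a line for the deposited TPM interval; the dashed line marks 1 TPM. Bax, Bcl2l1 and Diablo lie above 100 TPM, Hrk, Fas and Trp73 lie below 1 TPM in both libraries, and the points of Bmf and Trp73 lie below their own intervals.

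The feature that ties the BCL2 family together is the BH3 core, a short helix through which its members bind one another. A search of the coding sequences for a leucine codon, then any 2 codons, a codon for isoleucine, leucine, methionine, valine or alanine, a codon for glycine, alanine or serine, and an aspartate codon found exactly 1 match in 13 of the 14 BCL2 family members searched and none in Bcl2l2. Pmaip1, the remaining BH3-only gene, was not searched here. The same search matched 13.2% of 21526 protein-coding genes somewhere in their longest complete coding sequence, and 0.203% of all in-frame windows of 36 bases. The pattern is built on what is known of these proteins, so the matches are a description. The windows of 9 members whose levels are compared next are shown 5′ to 3′ on the coding strand, from GENCODE M21 transcripts, to set the motif of each role beside its level; capitals mark the leucine codon and the last 2 codons of the core.
Bcl2l1 (chr2:152829697-152829732, minus strand): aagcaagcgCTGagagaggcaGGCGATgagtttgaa
Mcl1 (chr3:95659427-95659462, plus strand): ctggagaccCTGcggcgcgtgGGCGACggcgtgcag
Bax (chr7:45465997-45466032, minus strand): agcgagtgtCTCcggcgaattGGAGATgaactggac
Bok (chr1:93686648-93689170, plus strand, across an intron): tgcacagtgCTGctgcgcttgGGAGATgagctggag
Bad (chr19:6950783-6950818, plus strand): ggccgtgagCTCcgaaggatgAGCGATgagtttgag
Bcl2l11 (chr2:128147141-128147176, plus strand): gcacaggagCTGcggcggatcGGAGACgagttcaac
Bbc3 (chr7:16313764-16313799, plus strand): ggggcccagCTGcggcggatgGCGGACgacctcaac
Bid (chr6:120897289-120897324, minus strand): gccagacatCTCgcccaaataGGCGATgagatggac
Bmf (chr2:118545100-118545135, minus strand): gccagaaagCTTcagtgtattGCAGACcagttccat
Of these 9, all but Bad, Bbc3 and Bmf carry a glycine codon before the aspartate codon; Bad has a serine codon there, and Bbc3 and Bmf have alanine codons.

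Among the pro-survival genes, Bcl2l1 was the most abundant and the founding member Bcl2 was low. Bcl2l1, which encodes BCL-XL and whose loss in mice is lethal with death of immature neurons, was at 134.80 and 127.99 TPM. Mcl1, a short-lived protein needed by neural progenitors, was at 70.39 and 60.28 TPM. Bcl2 was at 8.92 and 9.36 TPM, and Bcl2l2, which encodes BCL-W, at 2.77 and 2.11 TPM. All 3 neighbouring levels were apart in this role. The level of Bcl2l1 was 15.1 times that of Bcl2 in replicate 1 and 13.7 times in replicate 2, and Bcl2l1 made up 62.2% and 64.1% of the summed TPM of the role.

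The effectors were led by a single gene. Bax (chr7:45461697-45466898) had the highest level of all 38 members, at 177.76 and 186.15 TPM, or 83.2% and 83.0% of the role's sum. Bok, an effector that is less dependent on the other BCL2 proteins, was at 32.61 and 35.66 TPM. Bak1, which encodes BAK and can substitute for BAX in many adult tissues, was at 3.39 and 2.44 TPM, from only 93 and 108.76 expected counts. The level of Bax was 52.4 and 76.3 times that of Bak1, and the intervals of the 3 genes were apart in both libraries.

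The 8 BH3-only genes spread from 56.24 TPM down to 0.19 TPM. Bad, whose protein is silenced by survival kinases, was at 56.24 and 55.47 TPM and made up 52.3% and 49.99% of the sum of the role. Bcl2l11, which encodes BIM and responds to loss of trophic support in neurons, was at 17.31 and 20.28 TPM. Bbc3, the p53 target that encodes PUMA, was at 15.29 and 14.33 TPM. Bid, which links death receptors to mitochondria, was at 13 and 12.08 TPM. Bcl2l11 and Bbc3 were not apart in both libraries, nor were Bbc3 and Bid, so the place of Bbc3 is not resolved here; Bcl2l11 was apart from Bid in both libraries (15.6 to 19.2 against 11.8 to 14.5 TPM in replicate 1, and 18.6 to 22.1 against 11.1 to 13.3 TPM in replicate 2).

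The remaining 4 BH3-only genes were low. Pmaip1, the p53 target that encodes NOXA, was at 2.79 and 3.73 TPM, and Bmf, which is tied to the cytoskeleton, at 1.60 and 3.22 TPM. These neighbours were not apart. Bik was at 1.20 and 1.59 TPM from 18 and 30 counts. Hrk, a BH3-only gene of neurons deprived of growth factor, was at 0.19 and 0.27 TPM from 18 and 32 counts. The deposited TPM of Bmf lay below its own interval in both libraries (1.93 to 4.41 and 3.27 to 6.38 TPM), and its posterior mean TPM was 3.10 and 4.74.

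Summed over their members, the pro-survival genes stood at 216.88 and 199.74 TPM (208.3 ± 12.1, SD, n = 2) and the effectors at 213.76 and 224.25 TPM (219.0 ± 7.42, SD, n = 2). The log2 ratio of the first sum to the second was 0.02 in replicate 1 and -0.17 in replicate 2, so the sign differed between the libraries and the sums are not separated. The 8 BH3-only genes together reached 107.62 and 110.97 TPM. The pro-survival sum was 2.02 and 1.80 times the BH3-only sum. These are sums of RNA levels and say nothing of protein.

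Several BCL2 family genes make proteins of different ends or lengths, and the transcript estimates divided them as follows. For Bcl2l1, the 2 transcripts that encode the full 233-residue protein held 80.2% and 78.4% of the gene's TPM. Transcripts encoding a 209-residue protein that shares the first 565 coding bases and then differs held 5.34% and 5.97%. No transcript of Bcl2l1 annotated with a complete coding sequence encoded any other protein. Mcl1 was nearly all 1 form, with 97.8% and 97.2% of its TPM on Mcl1-201, which encodes 331 residues. Bcl2l11-205, which encodes 196 residues and is the longest form, held 49.4% and 43.7%. The next highest complete form was Bcl2l11-202, which encodes 91 residues, at 9.25% and 10.2%. The 140-residue form, which lacks 168 coding bases present in the longest, held 1.73% and 2.76%, and the 110-residue form, which lacks 258, held 8.61% and 4.29%.

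The transcript estimates divided Bcl2 between annotated protein-coding ends. Bcl2-201, which encodes 236 residues, was at 5.93 and 5.31 TPM, and Bcl2-202, which encodes 199 residues, at 3.00 and 4.05 TPM. The share of Bcl2-202 was thus 33.6% and 43.3% of TPM, and 16.3% and 22.7% of expected counts, since the transcripts differ in length (7191 and 2841 bases). Their coding sequences are the same over 577 bases and then part. The ends are shown because they decide the protein made: BCL2 is known to sit in membranes through a hydrophobic tail at its end, which the longer form holds. Lower case marks the last 12 shared bases and capitals the bases of each form up to its stop codon.
Bcl2-201 (within chr1:106543267-106712315, minus strand, across an intron): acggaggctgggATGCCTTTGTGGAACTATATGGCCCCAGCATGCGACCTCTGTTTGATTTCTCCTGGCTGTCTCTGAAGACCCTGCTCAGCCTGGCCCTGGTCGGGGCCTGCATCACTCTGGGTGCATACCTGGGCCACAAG
Bcl2-202 (chr1:106712284-106712315, minus strand): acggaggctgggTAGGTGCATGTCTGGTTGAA
The window of Bcl2-202 runs on without a break into what is intron for Bcl2-201. Whether reads there came from unspliced RNA was not tested.

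The caspases and Apaf1 were all above 5 TPM. Casp2, an initiator caspase that p53 signalling can engage, was the highest at 60.91 and 65.56 TPM. Casp6, an executioner caspase, was at 45.52 and 45.21 TPM. Apaf1, the scaffold of the apoptosome, was at 24.44 and 27.46 TPM, and Casp9, the initiator it activates, at 21.77 and 20.68 TPM. The mouse genes Apaf1 and Casp9 are known for the overgrown forebrain that their loss causes. Casp8, the initiator caspase of death receptors, was the lowest at 8.69 and 9.72 TPM. Apaf1 and Casp9 were not apart in replicate 1 (21.7 to 27.1 against 19.7 to 23.8 TPM), while the other 3 neighbouring levels in this role were apart.

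Casp2-201, encoding 452 residues, held 80.0% and 78.2% of the TPM of Casp2, and Casp9-201, encoding 454 residues, held 79.8% and 78.6% of that of Casp9. The shorter complete forms of both genes were near 0: a 343-residue form of Casp2 was listed at 0 and 0.49 TPM, and a 405-residue form of Casp9 was listed at 0 in both. Apaf1 was the only one of 30 members with at least 2 transcripts and a mean of 1 TPM or more whose top transcript differed between the libraries. The other 29 (96.7%) had the same top transcript in both, compared with 90.4% of 10178 genes. In Apaf1 the top transcript was the protein-coding Apaf1-202 in replicate 1 (38.3% and 33.3% of TPM) and the processed transcript Apaf1-204 in replicate 2 (34.0% and 38.2%). Apaf1-204 is 511 bases long and held 60.74 and 96.85 counts, against 1050.26 and 1297.29 counts for Apaf1-202 at 6433 bases. All bases of Apaf1-204 lie in exons of Apaf1-202. Apaf1-201 and Apaf1-202 encode the same 1249 residues and together held 61.7% and 56.3% of TPM, so this protein form led in both libraries.

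Both proteins released from mitochondria were well expressed. Diablo (chr5:123509765-123524176), whose protein relieves caspases of their inhibitors, was at 108.05 and 119.54 TPM. Aifm1, a flavoprotein of the respiratory chain that can move to the nucleus in dying cells, was at 50.18 and 52.48 TPM. They were apart in both libraries. The full 237-residue form of DIABLO came from transcripts with 78.4% and 77.0% of the gene's TPM.

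Among the inhibitor of apoptosis proteins, Birc6 stood highest by gene level, but most of that level lay on transcripts that are not protein-coding. Birc6 (chr17:74528295-74703356), which encodes the giant ubiquitin ligase BRUCE, was at 92.51 and 90.72 TPM. Birc2, which encodes cIAP1, was at 37.48 and 35.12 TPM, and Xiap, which encodes the direct caspase inhibitor, was at 9.38 and 9.16 TPM. Birc3, the close relative of Birc2 that encodes cIAP2, was at 2.46 and 2.88 TPM. By gene level, all 3 neighbours were apart. Birc2 exceeded Birc3 by 15.2 and 12.2 times; the genes lie side by side on chromosome 9 and are similar in sequence, so the division of reads between them carries some uncertainty.

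The retained-intron transcript Birc6-206 (chr17:74697356-74703069, 1030 bases) held 49.97% and 49.47% of the TPM of Birc6 but only 12.8% and 12.7% of its expected counts (762.41 and 935.97). Of its 1030 bases, 1001 (97.2%) also lie in exons of the protein-coding Birc6-202, and it ends 287 bases before the 3′ end of that transcript. Protein-coding transcripts of Birc6 together held 25.6% and 24.8% of TPM, and 67.0% and 63.6% of counts. Counted over protein-coding transcripts only, an alternative chosen after seeing the data, Birc6 was at 23.7 and 22.5 TPM and Birc2 at 27.0 and 25.2 TPM, so the order of these genes turned in both libraries; such sums have no deposited interval. On the same count the role fell from a summed 139.9 TPM to 56.0 TPM.

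Xiap and Bak1 were the other members whose top transcript was not protein-coding in both libraries. These 3 of the 30 members compare with 8.2% of 9670 protein-coding genes at a mean of 1 TPM or more with at least 2 transcripts. Xiap-207, a processed transcript of 5407 bases, held 39.3% and 43.8% of the TPM of Xiap. All of its bases lie in exons of the protein-coding Xiap-204. Bak1-201, annotated as a target of nonsense-mediated decay, held 43.5% and 73.1% of the TPM of Bak1, and the protein-coding Bak1-202 held 27.9% and 26.9%. The rest, 28.5% in replicate 1 and 0 in replicate 2, lay outside GENCODE M21 and so had no class. Transcripts without a class were counted as not protein-coding in the shares given here. Bak1-201 shares 98.99% of its bases with Bak1-202, and Bak1 had 93 and 108.76 counts, so the division among its transcripts rests on few reads.

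Of the FAS pathway, the receptor gene was low and the genes acting inside the cell were expressed. Fas, the receptor, was at 0.28 and 0.68 TPM from 7 and 21 counts. Fadd, the adaptor that couples it to caspase-8, was at 5.95 and 6.55 TPM. Fas was apart from Fadd in both libraries, and the gene for its ligand, Fasl, was listed at 0 in both. Genes of other death receptors, outside the 38 and named after their values were seen, varied in level. The TNF receptor Tnfrsf1a was at 14.24 and 18.82 TPM, its adaptor Tradd at 8.83 and 11.97 TPM and the kinase Ripk1 at 7.68 and 7.60 TPM. The receptor gene Tnfrsf10b was low, at 1.54 and 1.60 TPM, and the ligand gene Tnfsf10 was at 0.01 TPM in both libraries.

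Trp53 and its negative regulators were among the more abundant members. Trp53 (chr11:69580359-69591873) was at 87.55 and 96.19 TPM. Mdm2, the ubiquitin ligase that degrades p53 and is itself a p53 target, was at 67.50 and 61.70 TPM, and Mdm4, its partner that masks the p53 activation domain, at 45.02 and 40.93 TPM. Trp73, the p53 relative with roles in Cajal-Retzius cells and ciliated cells, was at 0.67 and 0.39 TPM from 56 and 41 counts. All 3 neighbours were apart. The ratio of Trp53 to Mdm2 was 1.30 and 1.56, and that of Mdm2 to Mdm4 was 1.499 and 1.507.

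The p53 gene has a known splice variant with another carboxy terminus, and the data hold both. Trp53-201, encoding 387 residues, and Trp53-203, which has 9 more coding bases at its start, share their end and together held 77.3% and 81.9% of the gene's TPM. Trp53-202, encoding 378 residues, was at 14.47 and 14.96 TPM, or 16.5% and 15.6%. The shares of Trp53-201 and Trp53-203 singly were 72.1% and 5.21% in replicate 1 and 50.9% and 30.9% in replicate 2. These transcripts are 1772 and 1771 bases long, and the deposited posterior SD of their counts was 474.09 and 476.11 in replicate 1 and 841.22 and 851.34 in replicate 2, so their division is not resolved. By posterior mean TPM their order turned in replicate 2, to 35.7% and 45.3%. The ends that part Trp53-201 from Trp53-202, after 1083 shared coding bases, are shown with the last 12 shared bases in lower case and each form's own bases up to its stop codon in capitals.
Trp53-201 (within chr11:69590752-69591428, plus strand, across an intron): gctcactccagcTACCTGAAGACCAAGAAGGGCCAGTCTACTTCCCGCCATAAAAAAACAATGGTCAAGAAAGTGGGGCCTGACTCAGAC
Trp53-202 (within chr11:69590752-69591305, plus strand, across an intron): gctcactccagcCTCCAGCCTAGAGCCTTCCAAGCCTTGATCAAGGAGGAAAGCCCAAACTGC
The stretch that Trp53-202 lacks belongs to the basic regulatory tail of p53, which is rich in lysine codons (AAG and AAA).

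For Mdm2, the full 489-residue form came from Mdm2-201 with 69.2% and 66.3% of TPM. For Mdm4, transcripts encoding its full 489 residues held 45.4% and 48.0%. The 4 retained-intron transcripts of Mdm4 listed above 0 held 41.5% and 40.5% of its TPM but 11.05% and 10.97% of its counts. Trp73 was read mainly from Trp73-205 (83.6% and 78.9% of TPM), which encodes 590 residues, with too few counts to say more.

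The 6 p53 target genes were all expressed, from 8.31 to 33.51 TPM. Ccng1, which encodes cyclin G1, was at 33.24 and 33.51 TPM, and Trp53inp1, a stress-induced p53 cofactor, at 29.54 and 29.83 TPM. Sesn1, a sestrin that restrains growth signalling, was at 20.51 and 22.60 TPM, and its relative Sesn2 was at 9.41 and 9.64 TPM. Phlda3, a repressor of AKT signalling, was at 12.67 and 17.98 TPM. Zmat3, an RNA-binding protein, was at 8.33 and 8.31 TPM and was not apart from Sesn2. The other 4 neighbours were apart. Of Sesn1, the 492-residue form held 64.1% and 72.6% of TPM and the 551-residue form 35.9% and 27.4%.

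**Figure D2:**
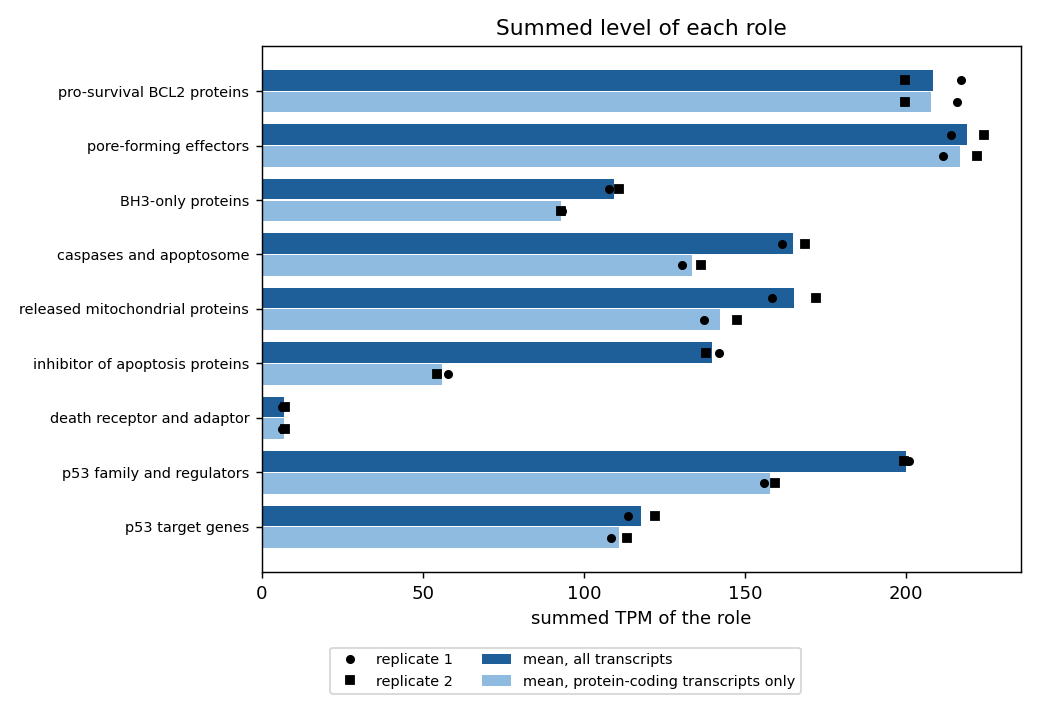
Summed TPM of each role, as the mean over both libraries (bars) with each library as a point, over all transcripts (dark) and over protein-coding transcripts only (light). The inhibitor of apoptosis proteins differ most between the counts, at 139.9 and 56.0 TPM, while the pro-survival proteins (208.3 and 207.7 TPM) and the effectors (219.0 and 216.7 TPM) differ little.

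By role, the highest sums belonged to the effectors, the pro-survival proteins and the p53 family with its regulators (200.74 and 199.21 TPM). Next were the released mitochondrial proteins (158.23 and 172.02 TPM) and the caspases with Apaf1 (161.33 and 168.63 TPM), whose order differed between the libraries. The inhibitor of apoptosis proteins followed, at 141.83 and 137.88 TPM over all transcripts. The p53 targets summed to 113.70 and 121.87 TPM, and the death receptor with its adaptor to 6.23 and 7.23 TPM.

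Genes of the same pathways outside the 38 were also mostly expressed. Of 25 other apoptosis genes, 19 were at 1 TPM or more in both libraries. The highest were Bnip3l, a mitophagy receptor, at 325.43 and 348.43 TPM, Vdac2, a mitochondrial channel that holds BAK, at 203.48 and 226.95 TPM, Birc5, which encodes survivin and acts in cell division, at 183.16 and 195.82 TPM, and Parp1, a DNA-damage sensor cut by caspases, at 176.77 and 180.65 TPM. Fasl, Bcl2a1d and Bcl2l10 were listed at 0 in both. Of 24 other p53 pathway genes, 21 were at 1 TPM or more in both. The highest were Trp53bp1 at 193.60 and 186.88 TPM, the antiproliferative gene Btg2 at 138.25 and 133.77 TPM, Ei24 at 87.07 and 88.07 TPM and the kinase Plk2 at 81.96 and 90.68 TPM. None of the genes of these lists passed the calling rule between the libraries described next.

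**Figure D3:**
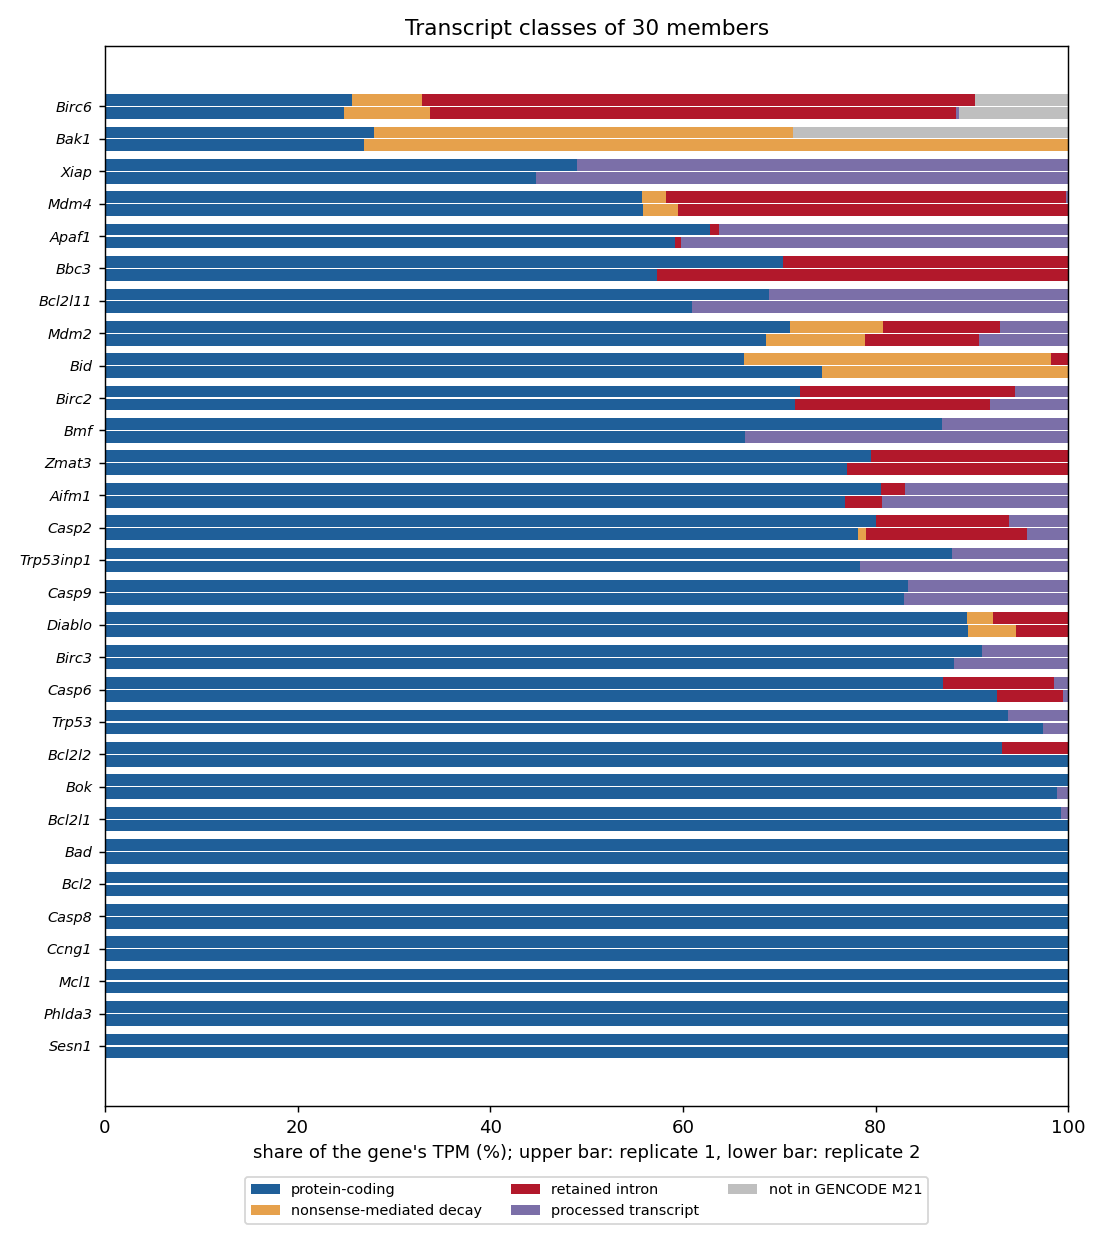
Share of each gene's TPM by transcript class for the 30 members with at least 2 transcripts and a mean of 1 TPM or more, with the upper bar for replicate 1 and the lower for replicate 2. Birc6, Bak1 and Xiap have under 50% of their TPM on protein-coding transcripts in both libraries, and genes such as Bad, Mcl1 and Sesn1 have all of it there.

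Over these 30 members, the median share of TPM on protein-coding transcripts was 86.9% and 80.7%, compared with 91.1% and 90.6% over 9670 protein-coding genes. By expected counts, the members' median was 94.6% and 93.9%, compared with 96.5% and 96.3%. At the level of the genes, 3 members were under 50% by TPM (Birc6, Bak1 and Xiap) and 1 by counts (Bak1). By the deposited posterior mean TPM, Bmf was also under 50%, at 44.5% and 44.6% against 86.9% and 66.5% by TPM. In all, 16 transcripts of other classes held at least 10% of a member's TPM, spread over 14 members. Of these, 8 had 90% or more of their bases in exons of the gene's leading protein-coding transcript and 4 had under 10% there. Where a short transcript lies wholly inside a longer one, its TPM is set by how reads over the shared stretch were divided.

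**Figure D4:**
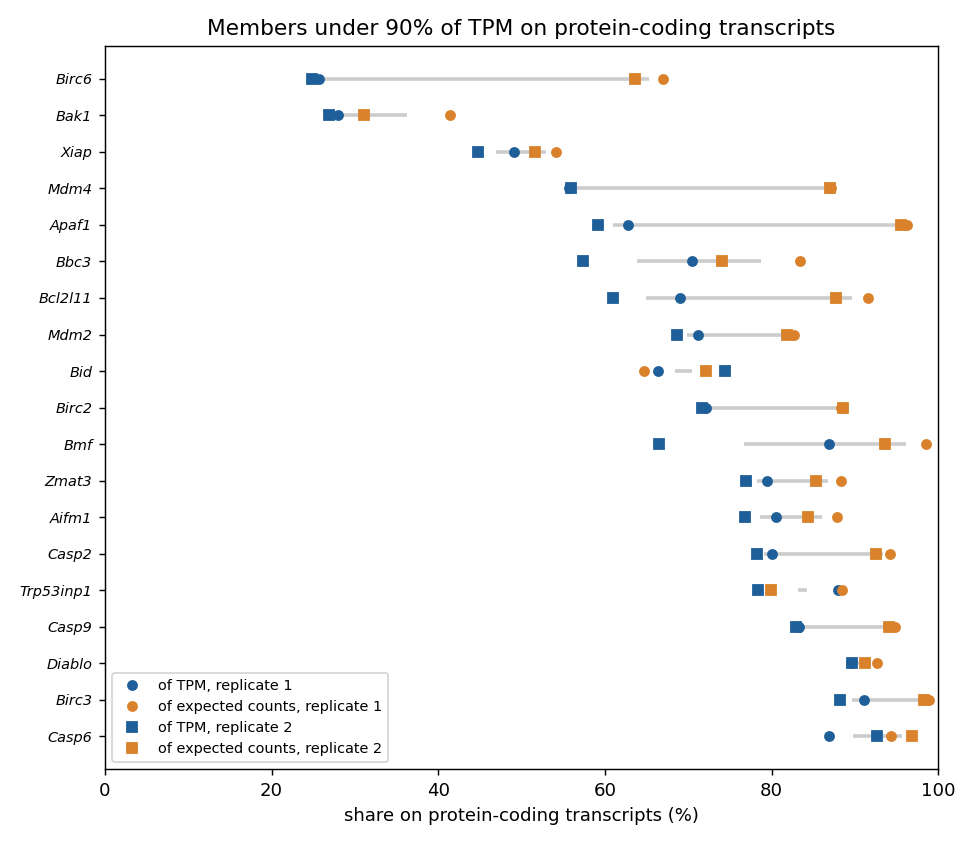
Share on protein-coding transcripts for the 19 members with a mean share under 90% of TPM, by TPM (blue) and by expected counts (orange), for replicate 1 (circles) and replicate 2 (squares); grey lines join the means. Birc6, Mdm4 and Apaf1 show wide gaps, from 25.2%, 55.8% and 61.0% of TPM to 65.3%, 87.1% and 95.9% of counts.

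Between the pools, 1 member was called as different, and such calls were about as rare among all genes. The libraries were compared with a two-sided exact binomial test on rounded expected counts, with Benjamini-Hochberg adjustment over all 18939 genes tested. Calls needed an adjusted p below 0.05, a change of at least 1.5-fold and a mean of 1 TPM or more. Of 35 members that could be called, 1 was higher in replicate 2 and none was lower, compared with 2.14% and 1.41% of 15199 genes. The median log2 ratio was -0.0023 over the members and -0.0010 over all genes tested at that level. The middle 95% of log2 ratios ran from -0.27 to 0.50 for the members and from -0.59 to 0.66 for all genes. These ranges cover 35 members and 15199 genes and were not matched for counts. The narrower range therefore does not show that the members were steadier than other genes. This test compares 1 library with 1 other and has no replicate check.

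The gene called was Bmf, with 114 counts in replicate 1 and 232 in replicate 2. Its ratio was 1.58 (95% exact interval 1.254 to 1.989, adjusted p = 0.000585 by the exact binomial test). The deposited TPM intervals of Bmf overlapped (1.93 to 4.41 and 3.27 to 6.38 TPM). With edgeR's exact negative binomial test and the dispersion common to these libraries, its adjusted p was 0.315 and no member was called. In that test, 3 members had an unadjusted p under 0.05 and 201 genes in all were called. The dispersion was estimated from these same 2 libraries taken as replicates, so it counts the difference between them as noise. The test is therefore no independent check of the call.

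By the second rule, deposited TPM intervals that do not overlap at a mean of 1 TPM or more, 3 members were higher in replicate 2 and 1 was lower, compared with 10.6% and 5.19% of 15475 genes. The 3 were Phlda3 (12.67 and 17.98 TPM), Diablo (108.05 and 119.54 TPM) and Trp53 (87.55 and 96.19 TPM), and the lower one was Mcl1 (70.39 and 60.28 TPM). Their ratios of normalised counts were 1.39 (1.20 to 1.60) for Phlda3, 1.10 (1.04 to 1.15) for Diablo, 1.11 (1.06 to 1.17) for Trp53 and 0.83 (0.80 to 0.87) for Mcl1. All 4 were thus under 1.5-fold. Among 107 transcripts of the members at a mean of 1 TPM or more, the intervals of 5 were apart with the higher value in replicate 2 (5.4% of 35918 transcripts were) and of 2 with the lower value there (2.65% were). The higher ones, named after their values were seen, were Bmf-201, Phlda3-201, Sesn1-201, Casp2-204 and Bcl2l11-208. The lower ones were Mcl1-201 and Bcl2l1-202; the latter was at 34.93 and 22.63 TPM, while the other main transcript of the gene, Bcl2l1-201, was at 73.14 and 77.78 TPM.

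At an adjusted p under 0.05 with no limit on ratio or level, 10 of the 38 members passed, compared with 22.8% of 18939 genes. They were Bmf, Diablo, Trp53 and Phlda3, higher in replicate 2, and Bcl2l1, Mcl1, Birc2, Trp73, Mdm2 and Zmat3, lower there. Pmaip1 (2.79 and 3.73 TPM, ratio 1.31, 1.05 to 1.64) and Fas (ratio 2.32, 0.95 to 6.47) did not pass, with adjusted p of 0.0724 and 0.168 by the exact binomial test.

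**Figure D5:**
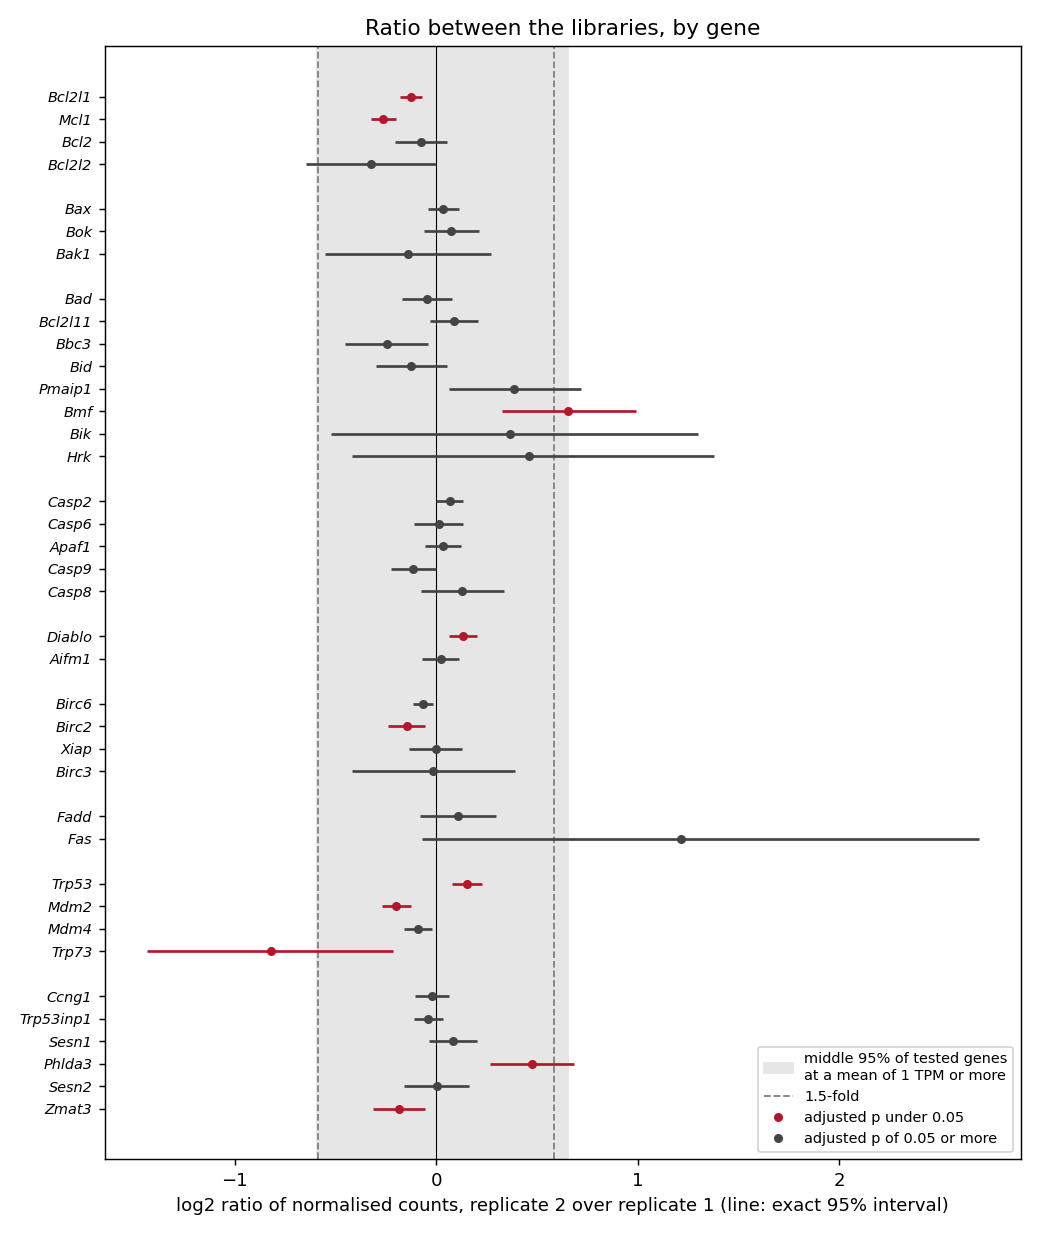
Log2 ratio of normalised counts, replicate 2 over replicate 1, for each member with its exact 95% interval; red marks an adjusted p under 0.05, the grey band holds the middle 95% of tested genes at a mean of 1 TPM or more (-0.59 to 0.66), and dashed lines mark 1.5-fold. Of the members at a mean of 1 TPM or more, Bmf alone has its point beyond 1.5-fold; Trp73 and Fas, beyond it too, are under 1 TPM.

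Markers of cell types other than neural cells also differed between the libraries. TPM was higher in replicate 2 for 7 of 9 macrophage markers (summed 108.8 and 134.7 TPM), 7 of 8 endothelial markers (158.3 and 182.4 TPM), 8 of 8 mesenchymal markers (1102 and 1557 TPM) and 7 of 7 red cell markers (10462 and 12032 TPM). For neuronal markers it was higher in replicate 2 in 2 of 8 (2224 and 2149 TPM) for progenitor markers in 3 of 8 (2976 in both) and for midbrain markers in 5 of 6 (275.0 and 297.1 TPM). None of these markers was listed at 0 in both libraries, and none was called at the 1.5-fold threshold. By the interval rule, 7 of 8 mesenchymal, 5 of 7 red cell, 4 of 8 endothelial, 4 of 8 macrophage and 4 of 6 midbrain markers were higher in replicate 2. None of these groups had a marker that was lower by that rule. Of 8 neuronal markers 1 was higher and 3 were lower, and of 8 progenitor markers 2 and 3. Over all genes the shares were 10.6% and 5.19%. The part of these markers in the differences of Bmf, Phlda3, Trp53, Diablo and Mcl1 was not tested.

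Some members share exonic bases with a gene on the other strand, and whether counting used strand is not given in the sources used here. Bad shares 20.5% of its exonic bases with Gpr137 (26.6 and 26.7 TPM), Bid 17.7% with Bcl2l13 (27.52 and 28.24 TPM), Bak1 18.2% with Ggnbp1 (3.50 and 4.04 TPM) and Diablo 21.5% with B3gnt4 (1.36 and 1.22 TPM). For Bid and Bak1 the overlapping gene had the higher TPM in both libraries. For all 4 members, reads that lie wholly within the shared bases cannot be assigned with certainty to either gene without strand. Other overlaps are on the same strand, where strand does not help. Bcl2l2 shares 13.3% of its exonic bases with Gm20521 (0 and 0.17 TPM). Bax shares 12.2% with Gm45808 and Diablo 19.3% with Gm49027, genes for which these data list no value.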

How the data were processed

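Total RNA over 200 nt from 2 pools of E12.5 mouse midbrain was extracted with mirVana, per the labels' protocols, which also link the manual of a SMARTer Ultra Low kit. The series title marks the record as superseded; the later record was not analysed here. The deposited expected counts per gene and transcript need not be whole. The deposited TPM values, with a posterior mean TPM, are normalised to effective length (length minus 99) and library by the authors. The deposited interval bounds are TPM signal limits whose level is not given, and an interval need not contain the TPM. The deposited posterior SD of counts is a score of how firmly reads were divided. The deposited isoform percent is a transcript's share of its gene. The annotation was GENCODE M4 on mm10; the aligner is not given in the sources used here. Names, classes, coordinates and sequences were taken from GENCODE M21 (also mm10) (42462 of 43346 gene identifiers matched). Spike-ins (4.14% and 3.48% of counts) and 26248 numbered features were left out.

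Expected counts were rounded and scaled with TMM from edgeR 4.0.16 (R 4.3.3; factors 0.995 and 1.005) on genes with at least 10 summed counts. Log2 ratios used a prior of 0.5 counts. Exact binomial tests and 95% intervals came from scipy 1.17.1 and cover counting error only. The test with its fold threshold, but not the intervals, was run on simulated counts. Those counts held counting error alone, as the test assumes, so the simulation cannot show how the test behaves under other variation. Alternatives included DESeq2 1.42.0 size factors and edgeR's exact test. The members, lists, tests and naming rule were chosen with earlier results of these data known. All 38 members are named. Of the other lists, the rule names the 4 highest and any called gene. Fasl, Bcl2a1d, Bcl2l10, Tnfrsf1a, Tradd, Ripk1, Tnfrsf10b and Tnfsf10 were added after their values were seen. Of transcripts, the rule names those leading a gene while differing between libraries or not protein-coding, and known protein variants. Others were named after their values were seen: Birc6-202, Xiap-204, Bak1-202, Bcl2-202, those of Diablo and Sesn1, and those with intervals apart between the libraries.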

Additional observations from a re-analysis of the deposited data

How the results depend on the processing

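No paired analysis was possible because there is 1 group and nothing to pair it with. The number of members at 1 TPM or more in both libraries stayed between 33 and 35 under every alternative run. Rescaled over nuclear protein-coding genes, the median level was 25.3 TPM and the sums, in the order in which the roles are listed, were 263.6, 276.9, 138.2, 208.6, 208.7, 176.9, 8.503, 252.9 and 148.9 TPM. As TMM-scaled counts per kilobase (CPM divided by effective length) they were 12.5, and 130.1, 136.7, 68.2, 103.0, 103.1, 87.3, 4.20, 124.9 and 73.5. Over protein-coding transcripts only (chosen after seeing the data), the median was 15.6 TPM, and the sums of BH3-only proteins, caspases, mitochondrial proteins, inhibitors of apoptosis, the p53 family and its targets were 92.96, 133.4, 142.3, 55.97, 157.6 and 110.96 TPM. By posterior mean TPM the p53 family summed to 197.1 TPM, and over members at a mean of 1 TPM or more the median was 21.6 TPM. By expected counts the median share on protein-coding transcripts was 94.8%, against 83.1% by TPM. The 1 call between the pools became 0 with edgeR's exact negative binomial test, with a minimum of 5 TPM and at 2-fold, 2 with a minimum of 0.1 TPM (Bmf and Trp73), 2 at a lower fold threshold (Bmf and Phlda3) and 9 with no fold threshold; Bmf's adjusted p ran from 0.000401 to 0.315. As a ratio of TPM, 5 uncalled members changed sign on the log2 scale: Bcl2 (0.069), Birc3 (0.23), Casp6 (-0.0099), Ccng1 (0.0117) and Trp53inp1 (0.0141). By posterior mean TPM, 28 of 30 members had the same top transcript, Trp53 joining Apaf1. Leaving out either library moved the median level between 18.9 and 20.5 TPM and the share on protein-coding transcripts between 80.7% and 86.9%; calls between pools and top transcripts need both libraries. Depth limits Fas, Hrk, Bik, Trp73 and Bak1, with under 110 counts in each library.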
